A study of Mus musculus with 288 samples.

Results

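The genes described here encode the nuclear part of the oxidative phosphorylation system of mouse macrophages. They were taken by symbol: every gene of the count table whose symbol begins with Nduf, Sdha, Sdhb, Sdhc, Sdhd, Uqcr, Cox4i, Cox5, Cox6, Cox7, Cox8 or Atp5 and that had at least 100 UMI summed over all wells. Of the 23481 genes in the table, 94 carry such a symbol and 83 reached the minimum. They comprise 42 genes of complex I, 6 of complex II, 8 of complex III, 12 of complex IV and 15 of complex V. The set holds 76 subunits and 7 assembly factors (5 Ndufaf genes and 2 Sdhaf genes). The rule used total abundance alone and no comparison between groups. Just inside the minimum were Ndufaf5 with 129 UMI, Ndufaf3 with 184, Sdhaf1 with 199 and Cox7a1 with 219. Just outside it were Ndufaf1 with 92 UMI, Ndufaf6 with 88, Cox6a2 with 82, Atp5sl with 79 and Atp5s with 36. Cox4i2 had 3 UMI and Cox6b2 had 1, and Cox7b2, Ndufa4l2, Cox8b and Cox8c had 0.

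Bone marrow cells of 12-week-old C57BL/6 mice were differentiated for 7 days in medium with serum and M-CSF, which turns marrow progenitors into macrophages. The cells were then pretreated for 24 h with 100 nM dCA, with 1 µM BRD-6989 or with DMSO, the solvent alone; the labels name both compounds as CDK8 inhibitors. After that, wells received SeV, Pam3cys, Poly(I:C), LPS, CpG, FLA, R848, MDP, MDP together with LPS (MDP_LPS), TDB or Zymosan, or were left unstimulated (NoStim). RNA was taken 15, 30, 45, 60, 90, 120, 150 and 180 min later according to the sample titles, whereas the protocol text gives a span of 0 to 4 h; the titles were used. There was 1 well for each pretreatment, stimulus and time, so that each pretreatment filled 96 wells. Each pretreatment was 1 plate with its own library index, so the plate and the pretreatment cannot be told apart. Within a plate, a column held 1 stimulus and a plate row held 1 time, and these cannot be told apart either. The labels name no separate cultures or animals, so p-values measure the spread between wells of this 1 experiment, which may be technical. In the pretreatment tests over the 12 stimulus conditions, that spread is how the pretreatment difference varied from 1 condition to another. Primary macrophages carry no genetic change here, and all groups share the same strain and differentiation.

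Oxidative phosphorylation couples the oxidation of NADH and succinate to ATP synthesis at the inner mitochondrial membrane. Complex I takes electrons from NADH, complex II from succinate, complex III passes them to cytochrome c, and complex IV passes them to oxygen, while complex V uses the proton gradient so formed to make ATP. Most subunits are encoded in the nucleus and imported, and the remainder are encoded by mitochondrial DNA, whose transcripts are not analysed here. In macrophages, the balance between this system and glycolysis is known to shift after microbial stimuli, with accumulation of succinate and of itaconate, the product of the enzyme encoded by Irg1.

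The measurement was 3′ digital gene expression, in which a tag is read from the end of each transcript and copies are collapsed by a random barcode into unique molecular identifiers (UMI). Because a transcript gives 1 tag whatever its length, levels are given as UMI per 1000000 UMI (CPM) without division by gene length. The 45S ribosomal RNA precursor Rn45s took 49.0 ± 7.04% of UMI in dCA wells, 43.6 ± 6.75% in BRD-6989 wells and 52.7 ± 6.88% in DMSO wells (SD, n = 96 each) and was left out of all totals. The remaining UMI numbered 21810 to 70797 per well. A well held 242 to 1033 UMI of the 83 genes, with a median of 490.5 over all wells. For comparisons between pretreatments the 8 times of each stimulus condition were summed, which gave 36 libraries, 12 for each pretreatment. A list of 9 macrophage markers summed to 4046 CPM over all wells, and 8 of the 9 had at least 100 UMI. Marker lists of 9 other cell types summed to 18.7 CPM or less, and all 6 erythroid markers were at 0. Neutrophil markers summed to 0 to 13.3 CPM in dCA libraries and 0 to 9.15 in BRD-6989 libraries, against 15.3 to 61.6 in DMSO libraries, with 1 of the 7 in the table at 0. Of their 150 UMI, S100a9 had 63, S100a8 55 and Ngp 26, while Ltf had 3, Mpo 2, Camp 1 and Elane 0. The sums thus rest on few genes. The part of the neutrophil markers in the results below was not tested. In such bulk samples, fewer cells of a type and less RNA per cell cannot be told apart.

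Together the 83 genes held 144789 UMI, or 1.29% of the UMI without Rn45s in dCA wells, 1.25% in BRD-6989 wells and 1.25% in DMSO wells. Of the 83, 52 lay at or above 100 CPM and 4 lay under 20, and the highest stood 46.7-fold above the lowest. The 10 highest held 27.4% of all UMI of the set. They were Cox4i1 (6026 UMI), a regulatory subunit of cytochrome c oxidase, Atp5j (5309), Atp5b (4151), Atp5g3 (4097), Atp5e (3487), Ndufv3 (3484), Atp5h (3360), Atp5a1 (3285), Atp5l (3261) and Cox6b1 (3220). Of the 10, 7 encode parts of ATP synthase. Atp5a1 and Atp5b encode the alpha and beta subunits of its catalytic head, and Atp5g3 encodes a copy of the membrane ring subunit c.

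Complex I genes held 34.2% of the UMI of the set, complex II genes 3.70%, complex III genes 10.1%, complex IV genes 21.1% and complex V genes 31.0%. The median level per gene was 89.998 CPM for complex I, 89.5 for complex II, 176 for complex III, 200.04 for complex IV and 269 for complex V. A typical ATP synthase gene was therefore higher than a typical complex I gene, although complex I has the most genes. Within complexes the highest and lowest genes were Ndufv3 (304 CPM) and Ndufaf5 (11.2), Sdhb (124) and Sdhaf1 (17.3), Uqcr10 (228) and Uqcrc2 (55.3), Cox4i1 (525) and Cox7a1 (19.1), and Atp5j (463) and Atp5f1 (115). The 7 assembly factors, which help to build the complexes and are not part of them, had a median of 20.3 CPM, against 140 CPM for the 76 subunits. In complex I the 7 nuclear core subunits, which carry the flavin, the iron-sulphur clusters and the catalytic sites, had a median of 78.3 CPM, against 111 CPM for the 30 other subunits. These medians are descriptions of levels, and no test was made between roles.

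**Figure D1:**
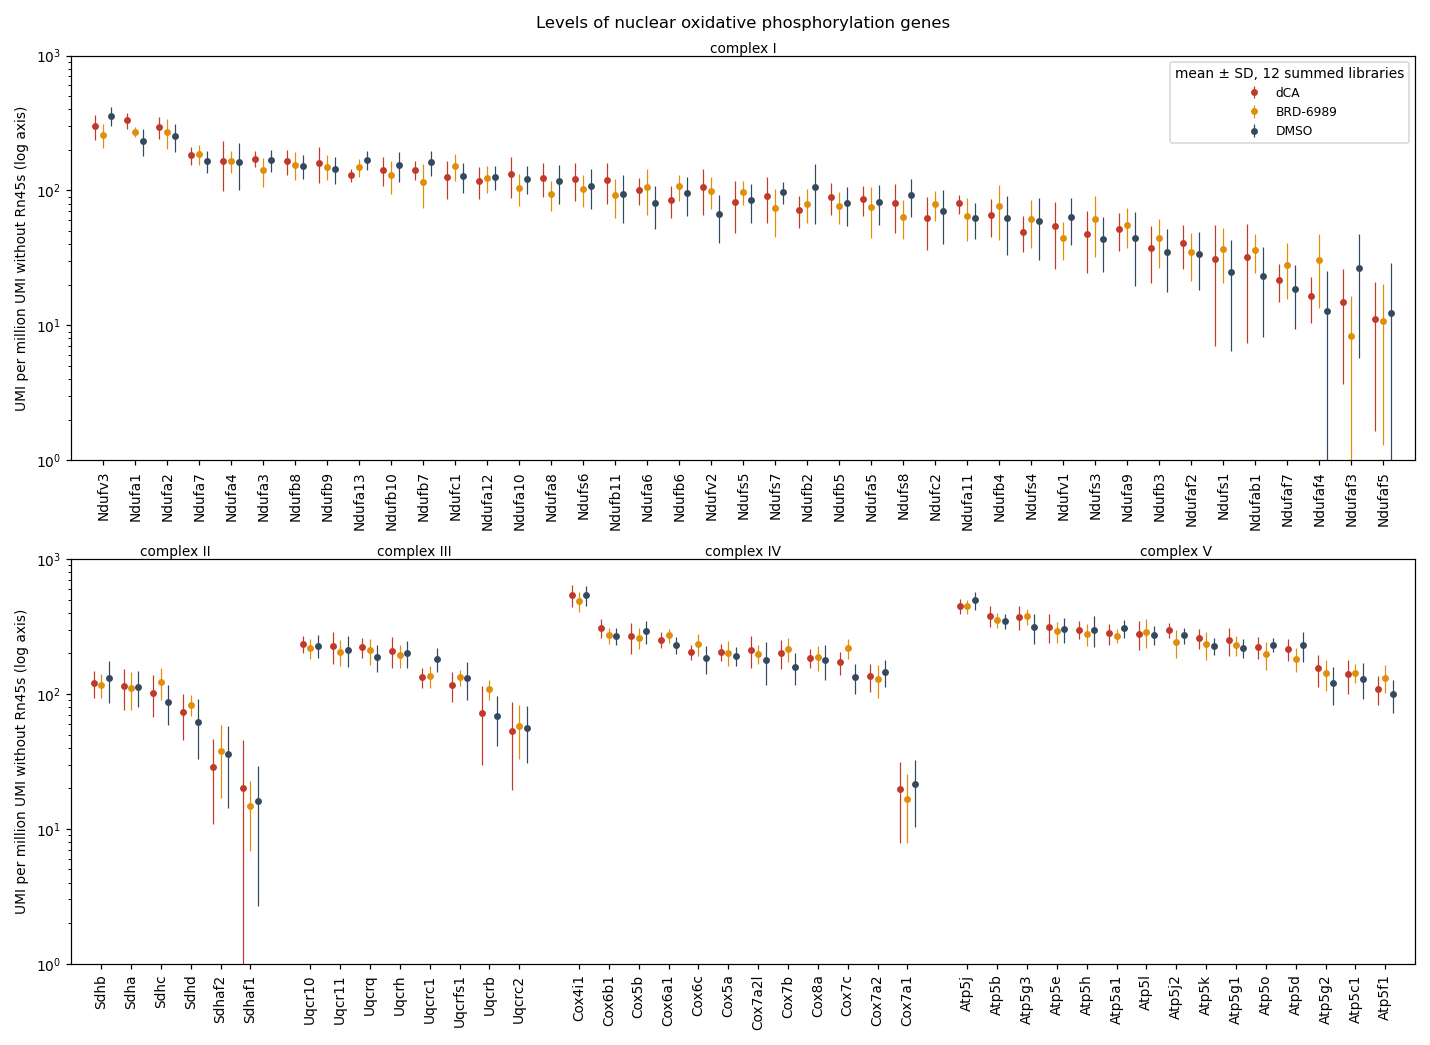
Level of 82 of the 83 genes in UMI per 1000000 UMI without Rn45s (vertical log axis, bars that reach lower stop at the axis) for dCA, BRD-6989 and DMSO, as the mean ± SD of 12 summed libraries, with genes ordered by level within each complex. Cox4i1 is the highest at 525 CPM over all wells and the Ndufaf and Sdhaf assembly factors lie towards the right end of their complexes.

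Genes with tissue-specific forms showed which form these macrophages used. Cox4i1 had 6026 UMI, and its alternative form Cox4i2, known as the form of lung and of low oxygen, had 3. Cox6a1, the common form, had 2916 UMI, and Cox6a2, the heart and muscle form, had 82. Cox7a2 had 1573 UMI, and Cox7a1, the heart and muscle form, had 219. Cox8a had 2111 UMI, and Cox8b and Cox8c had 0. Cox7a2l, a related gene linked in other work to supercomplexes of complexes III and IV, had 2287 UMI. Which allele of Cox7a2l these cells carry was not read. Ndufa4 had 1880 UMI, and Ndufa4l2, known as a target of the hypoxia factor HIF1, had 0. Ndufa4 is grouped with complex I by its symbol, although the protein is now counted with complex IV. The 3 genes for the identical mature subunit c of ATP synthase, Atp5g1, Atp5g2 and Atp5g3, had 2680, 1609 and 4097 UMI. Tags of near-identical copies cannot always be separated: 9 of the 83 genes have a pseudogene named after them in the RefSeq annotation, among them Cox7c, Ndufs5, Atp5c1 and Atp5l, and their values are uncertain to that extent.

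The spread between libraries was also measured gene by gene. Over the 36 summed libraries, the variance divided by that of a Poisson count had a median of 3.09 for the set, against 3.43 for the 8815 genes tested and 4.13 for 1610 genes with like totals. The libraries differ in pretreatment and stimulus, so this ratio holds those differences as well as the spread between like samples.

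Promoters were read for the genes that the comparisons below turn on, together with Cox6a1, which shows the motifs best known from this gene family. RefSeq windows (GRCm38.p6, the build named mm10 in the submitters' processing notes) from 250 bases before to 50 bases after the transcript start were at hand for 72 of the 83 genes. The 250 bases before the start are given 5′ to 3′ on the strand of the gene. Capitals mark matches to the NRF1, ETS, YY1, ERR or CRE motif.
Ndufv2, chr17:66101560-66101809, minus strand: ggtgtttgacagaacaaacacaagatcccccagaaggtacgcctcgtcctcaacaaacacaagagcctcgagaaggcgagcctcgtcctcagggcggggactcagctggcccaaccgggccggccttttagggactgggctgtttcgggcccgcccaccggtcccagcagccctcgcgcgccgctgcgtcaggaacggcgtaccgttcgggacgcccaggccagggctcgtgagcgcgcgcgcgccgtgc
Cox7c, chr13:86046796-86047045, minus strand: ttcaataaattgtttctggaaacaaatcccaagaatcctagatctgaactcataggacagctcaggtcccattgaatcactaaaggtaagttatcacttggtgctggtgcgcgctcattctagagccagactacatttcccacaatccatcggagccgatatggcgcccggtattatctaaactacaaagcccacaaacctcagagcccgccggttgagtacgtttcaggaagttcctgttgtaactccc
Cox7b, chrX:106015450-106015699, plus strand: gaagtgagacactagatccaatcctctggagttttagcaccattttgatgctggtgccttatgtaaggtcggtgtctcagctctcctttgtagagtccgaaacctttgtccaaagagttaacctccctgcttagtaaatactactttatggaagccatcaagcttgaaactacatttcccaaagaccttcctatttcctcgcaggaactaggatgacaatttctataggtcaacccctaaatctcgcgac
Ndufa1, chrX:37191239-37191488, minus strand: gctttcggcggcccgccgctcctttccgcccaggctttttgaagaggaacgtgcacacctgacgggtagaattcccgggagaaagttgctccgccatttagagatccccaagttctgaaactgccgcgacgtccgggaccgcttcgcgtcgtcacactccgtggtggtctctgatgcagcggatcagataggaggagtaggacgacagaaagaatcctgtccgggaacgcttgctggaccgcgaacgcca
Atp5g3, chr2:73911327-73911576, minus strand: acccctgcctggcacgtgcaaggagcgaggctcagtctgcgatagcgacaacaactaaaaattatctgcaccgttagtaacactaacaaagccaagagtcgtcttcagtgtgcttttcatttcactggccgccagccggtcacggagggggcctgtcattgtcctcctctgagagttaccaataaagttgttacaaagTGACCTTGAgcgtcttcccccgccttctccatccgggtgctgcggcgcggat
Cox6a1, chr5:115348959-115349208, minus strand: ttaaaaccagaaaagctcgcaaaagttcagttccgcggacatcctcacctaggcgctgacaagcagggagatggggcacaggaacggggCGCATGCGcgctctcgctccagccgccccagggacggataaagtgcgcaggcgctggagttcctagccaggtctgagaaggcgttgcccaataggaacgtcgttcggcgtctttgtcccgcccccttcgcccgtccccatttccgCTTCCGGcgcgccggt
The Cox6a1 stretch holds an NRF1 core and an ETS motif, Atp5g3 holds an ERR motif, and the other 4 stretches hold none of these motifs. The Atp5g3 stretch lies inside the span given for that gene below, so the start used there is internal to the gene.

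NRF1, GABPA of the ETS family, YY1 and the oestrogen-related receptors (ERR) are known regulators of nuclear genes for mitochondria. Motifs were searched as exact letters on both strands over the whole 300 bases. The palindromic NRF1 core CGCATGCG occurred in 11 of the 72 genes (15.3%), against 5.18% of the 6659 genes tested that had a window and 2.07% of all 27025 genes with one. The YY1 motif AAGATGGC occurred in 10 of 72 (13.9%), against 6.10% of tested genes. The ETS motif CCGGAAG occurred in 18 of 72 (25%), close to the 22.8% of tested genes. The GC box GGGCGG, bound by SP1, occurred in 32 of 72 (44.4%), against 70.5% of tested genes. The ERR motif TCAAGGTCA occurred in 2 of 72, against 0.345% of tested genes, and the CRE motif TGACGTCA in 4 of 72, against 3.74%. Each is a count of letters, and a match is not a bound site.

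The first comparison asked what 24 h with each inhibitor did to these transcripts, over all 12 stimulus conditions. Under dCA, 5 of the 83 genes rose and 0 fell. Those that rose were Ndufa1, Ndufv2, Cox7c, Cox7b and Atp5g3, by 1.24 to 1.66-fold. Under BRD-6989, 9 rose and 4 fell. The genes that rose were Cox7c, Cox7b, Uqcrb, Ndufaf4, Ndufv2, Cox6c, Sdhc, Atp5g3 and Atp5f1, and those that fell were Ndufv3, Ndufaf3, Ndufb7 and Uqcrc1. Calls were made with edgeR's quasi-likelihood test on summed UMI counts, with the stimulus as a block, at a Benjamini-Hochberg adjusted p under 0.05 over all 8815 genes. Over all genes, 6.92% rose and 6.58% fell under dCA, and 7.98% rose and 8.2% fell under BRD-6989. Of the 83 genes, 6.02% were called under dCA and 15.7% under BRD-6989, while 1190 and 1426 of the 8815 genes were called in either direction, so calls were no more frequent in the set than among all genes.

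The median log2 change over the 83 genes was 0.15 under dCA, with 59 positive and 24 negative, against a median of -0.02 over all genes. Under BRD-6989 it was 0.06, with 49 positive and 34 negative, against a median of -0.0007. With the Rn45s share as a covariate, the median of the set was 0.01 under dCA and turned to -0.27 under BRD-6989. The 95% interval lay within a log2 change of 1 either way for 76 genes under dCA and 74 under BRD-6989. Both comparisons use the same DMSO libraries. Ndufv2, Cox7c, Cox7b and Atp5g3 were called in both, and 14 genes were called in at least 1.

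These counts moved with the processing. With library sizes in place of TMM scaling, 2 genes rose and 3 fell under dCA, and 6 rose and 5 fell under BRD-6989. With the Rn45s share as a covariate, 1 gene was called under dCA (Ndufv2, adjusted p = 0.010, edgeR) and 0 under BRD-6989. That share differs between the plates, as given above. Over all genes, calls with this covariate numbered 681 under dCA and 215 under BRD-6989, against 1190 and 1426 without it. With library sizes in place of TMM scaling they numbered 1237 and 1419. Leaving out 1 stimulus condition at a time left 2 genes higher under dCA without MDP_LPS and 3 without NoStim, Pam3cys, FLA, R848 or Zymosan, and a gene fell without Poly(I:C) or MDP_LPS (1 each). Under BRD-6989 it left 5 higher without Poly(I:C), CpG or FLA, and 2 lower without NoStim or MDP. In wells of 60 min and later alone, 1 gene rose under dCA, and 3 rose and 1 fell under BRD-6989. Over all genes, 816 and 1007 were called in those wells.

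**Figure D2:**
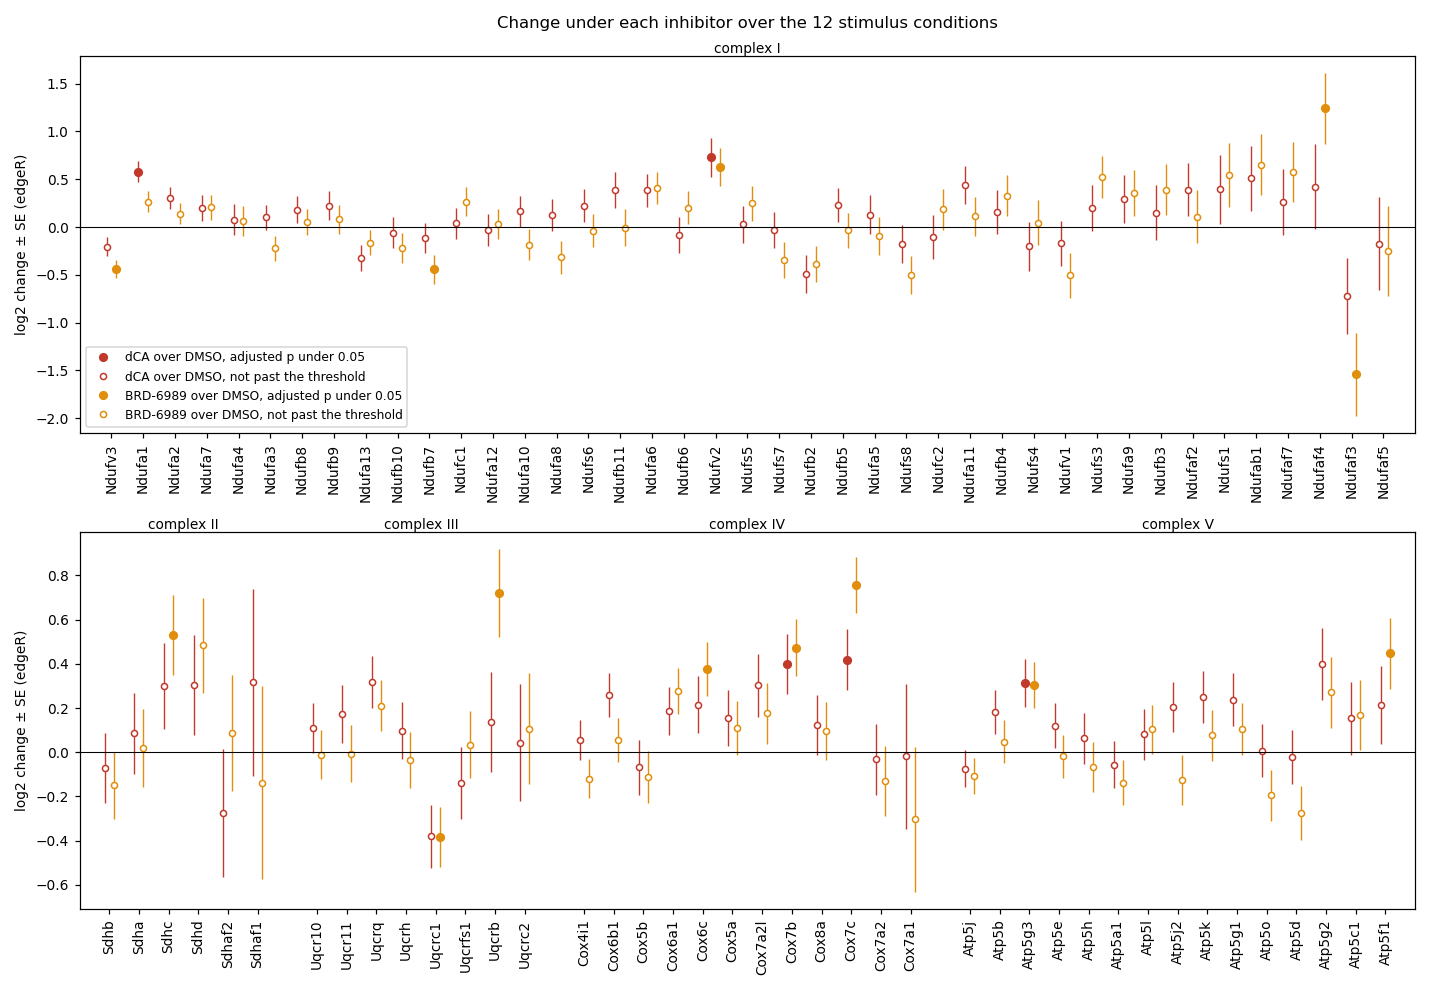
Log2 change ± SE of 82 of the 83 genes under dCA and under BRD-6989 over DMSO, fitted with edgeR over the 12 stimulus conditions, with genes ordered by level within each complex and filled points for an adjusted p under 0.05. Of the filled points, 5 belong to dCA, all above 0, and 13 to BRD-6989, of which 4 lie below 0.

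In complex I, 2 of 42 genes rose and 0 fell under dCA, and 2 rose and 3 fell under BRD-6989. Ndufa1 (chrX:37187588-37191238), a small accessory subunit of the membrane arm needed for assembly of the complex, had 277 to 436 CPM in dCA libraries (median 320.1) and 244 to 314 in BRD-6989 libraries (median 265), against 176 to 360 in DMSO libraries (median 217). The dCA library was above the DMSO library of the same stimulus in 11 of 12 conditions, although the ranges overlapped. The log2 change under dCA was 0.58 ± 0.11 (SE, edgeR adjusted p = 4.24e-05), and that under BRD-6989 was 0.27 ± 0.11 (adjusted p = 0.0860), which did not pass. Ndufa1 stayed called under dCA when any 1 stimulus condition was left out, and the Rn45s covariate was the 1 alternative tried under which its adjusted p (0.0825) missed the threshold.

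Ndufv2 (chr17:66078795-66101559) encodes the core subunit with the iron-sulphur cluster next to the flavin, in the arm that binds NADH. It had 39.5 to 169 CPM in dCA libraries (median 108) and 43.3 to 149 in BRD-6989 libraries (median 101), against 38.3 to 106 in DMSO libraries (median 53.7). DMSO libraries were mostly low, with the dCA library higher in 9 of 12 conditions and the BRD-6989 library higher in 10 of 12. The log2 change was 0.73 ± 0.21 under dCA (adjusted p = 0.00961) and 0.63 ± 0.20 under BRD-6989 (adjusted p = 0.0223, edgeR). Of 23 alternatives, 1 lost the dCA call of Ndufv2 and 6 lost its BRD-6989 call. Its partners in the same arm did not pass the test. Ndufv1, the flavin subunit, had log2 values of -0.17 ± 0.23 and -0.50 ± 0.24 under dCA and BRD-6989. Ndufs1, at 31.4 CPM over all wells, had 0.40 ± 0.36 and 0.55 ± 0.34. These values were not tested against those of Ndufv2.

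Ndufv3, an accessory subunit of that arm and the highest complex I gene, went the other way. It had 220.2 to 402 CPM in dCA libraries (median 294) and 170 to 347 in BRD-6989 libraries (median 265), against 299 to 517 in DMSO libraries (median 345). The BRD-6989 library was below the DMSO library in 12 of 12 conditions. The log2 change was -0.44 ± 0.10 under BRD-6989 (edgeR adjusted p = 0.00059) and -0.20 ± 0.10 under dCA (adjusted p = 0.183). Ndufb7, an accessory subunit of the membrane arm, also fell under BRD-6989, by 0.44 ± 0.15 on the log2 scale (adjusted p = 0.0377), and was lower in 8 of 12 conditions; 12 of 23 alternatives lost this call. Thus within 1 enzyme the called subunits went both up and down under BRD-6989.

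Both called assembly factors of complex I were scarce. Ndufaf4 had 129 UMI in the BRD-6989 wells, against 45 in the DMSO wells, and rose by a log2 of 1.24 ± 0.37 (adjusted p = 0.0107), which the Rn45s covariate turned to -0.44. Ndufaf3, named after its values were seen, had 37 UMI in the BRD-6989 wells, against 93 in the DMSO wells, and fell by 1.54 ± 0.43 (adjusted p = 0.00521). The 2 proteins are known to act together in assembly, and their transcripts differed in direction. Ndufa4 had log2 values of 0.08 under dCA and 0.06 under BRD-6989, neither past the test.

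In complex II, which is also the succinate dehydrogenase of the citric acid cycle, 0 of 6 genes were called under dCA, 1 of 6 had an adjusted p under 0.05 under BRD-6989, and none was called lower. Sdhc, a membrane anchor, had 50.04 to 182 CPM in dCA libraries (median 95.1) and 70.9 to 183 in BRD-6989 libraries (median 127.5), against 35.5 to 130.0 in DMSO libraries (median 93.4). It rose under BRD-6989 by 0.53 ± 0.18 (adjusted p = 0.0325) and was higher in 9 of 12 conditions, and 9 of 23 alternatives lost the call. Sdhd, the other anchor, had a log2 value of 0.48 ± 0.21 (adjusted p = 0.119). The catalytic subunits Sdha, which binds flavin, and Sdhb, which holds iron-sulphur clusters, had values of 0.02 and -0.15 under BRD-6989 and 0.09 and -0.07 under dCA. The anchors and the catalytic subunits were not compared by a test.

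In complex III, 0 of 8 genes were called under dCA, and 1 rose and 1 fell under BRD-6989. Uqcrb, the ubiquinone-binding subunit, had 15.8 to 148 CPM in dCA libraries (median 66.6) and 89.6 to 162 in BRD-6989 libraries (median 106), against 32.2 to 112 in DMSO libraries (median 60.02). Its BRD-6989 library was above the DMSO library in 12 of 12 conditions, and the log2 change was 0.72 ± 0.20 (edgeR adjusted p = 0.00609). Under dCA the value was 0.14 ± 0.23. Uqcrc1, a core subunit, fell by 0.38 ± 0.14 under BRD-6989 (adjusted p = 0.0448) and had nearly the same value under dCA, -0.38 ± 0.14, with an adjusted p of 0.0668. The BRD-6989 call was lost under 13 of 23 alternatives. Uqcrc2, its partner in the core, had log2 values of 0.11 and 0.04 under BRD-6989 and dCA, and Uqcrfs1, the Rieske iron-sulphur subunit, had 0.03 and -0.14.

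Complex IV, like complexes II and V, had calls only upward. Of its 12 genes, 2 rose under dCA, 3 rose under BRD-6989 and none was called lower. Cox7c (chr13:86044798-86046795), a small subunit of the membrane part, had 127 to 218 CPM in dCA libraries (median 181) and 169 to 267 in BRD-6989 libraries (median 230), against 83.6 to 207 in DMSO libraries (median 127). Each BRD-6989 library was above the DMSO library of its stimulus, and the dCA library was above it in 10 of 12 conditions. The log2 change was 0.42 ± 0.14 under dCA (adjusted p = 0.0321) and 0.76 ± 0.13 under BRD-6989 (adjusted p = 4.95e-06, edgeR). Of 23 alternatives, 11 lost the dCA call and 1, the Rn45s covariate, lost the BRD-6989 call.

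Cox7b (chrX:106015700-106022450), another small membrane subunit, had 123 to 310 CPM in dCA libraries (median 195) and 143 to 307 in BRD-6989 libraries (median 211), against 106 to 229 in DMSO libraries (median 155). Its log2 change was 0.40 ± 0.13 under dCA (adjusted p = 0.0343) and 0.47 ± 0.13 under BRD-6989 (adjusted p = 0.00498, edgeR). The dCA call was lost under 13 of 23 alternatives, and the Rn45s covariate turned the BRD-6989 value to -0.057. Cox6c, a membrane subunit named because it was called and outside the rule for named genes, rose under BRD-6989 by 0.38 ± 0.12 (adjusted p = 0.0243), with -0.10 under the covariate. The most abundant subunit, Cox4i1, had log2 values of 0.06 ± 0.09 under dCA and -0.12 ± 0.09 under BRD-6989. Cox6a1 had 0.28 ± 0.11 under BRD-6989 (adjusted p = 0.0619), and Cox8a and Cox7a2 had 0.10 and -0.13. Neither Cox7a1 nor Cox7a2l passed the test in either comparison.

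In complex V, 1 of 15 genes rose under dCA, 2 rose under BRD-6989 and none was called lower. Atp5g3 (chr2:73908447-73912464) had 277 to 500.4 CPM in dCA libraries (median 369) and 306 to 500.2 in BRD-6989 libraries (median 369), against 216 to 456 in DMSO libraries (median 305). Its log2 change was 0.31 ± 0.11 under dCA (adjusted p = 0.0434) and 0.30 ± 0.11 under BRD-6989 (adjusted p = 0.0370, edgeR), and the groups overlapped widely. The call was lost under 13 of 23 alternatives with dCA, and under 12 of 23 with BRD-6989, where the Rn45s covariate turned the value to -0.28. The other subunit c genes did not pass, with log2 values under dCA of 0.24 for Atp5g1 and 0.40 for Atp5g2. Atp5f1, a subunit of the peripheral stalk, rose under BRD-6989 by 0.45 ± 0.16 (adjusted p = 0.0472), a call lost under 16 of 23 alternatives. Subunits of the catalytic head did not pass the test, with log2 values of -0.06 and -0.14 for Atp5a1, 0.18 and 0.05 for Atp5b, and 0.15 and 0.17 for Atp5c1, the central stalk subunit, under dCA and BRD-6989.

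**Figure D3:**
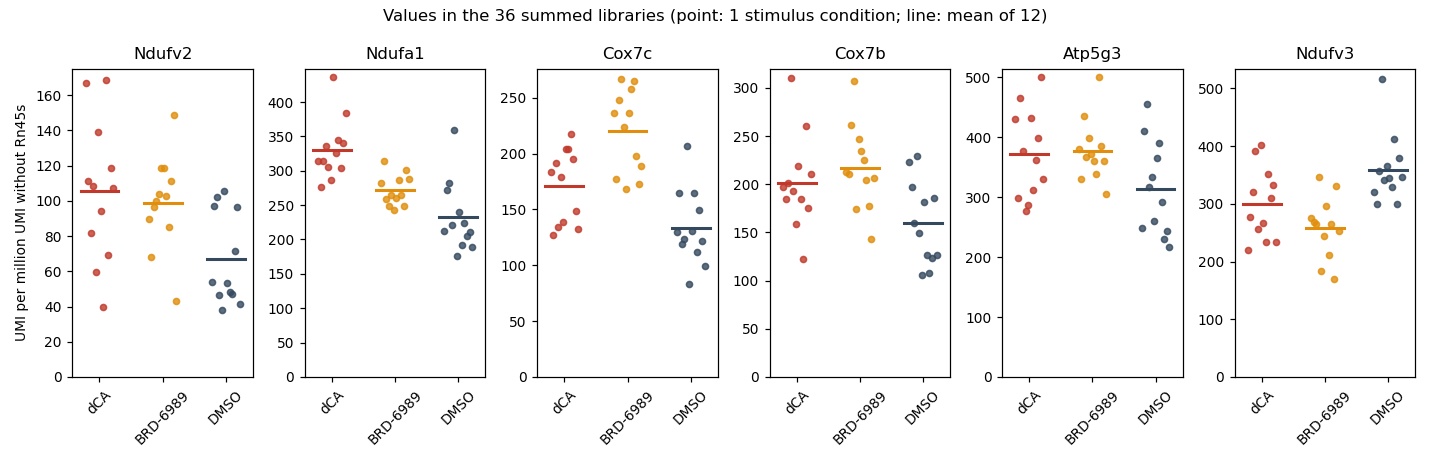
Level in UMI per 1000000 UMI without Rn45s (vertical axis from 0) of Ndufv2, Ndufa1, Cox7c, Cox7b, Atp5g3 and Ndufv3 in each of the 36 summed libraries, with a point for each of 12 stimulus conditions and a line for their mean, for dCA, BRD-6989 and DMSO. Points of all 3 pretreatments overlap in every panel, with Cox7c highest under BRD-6989 (169 to 267 CPM) and Ndufv3 highest under DMSO (299 to 517 CPM).

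Set against each other, the inhibitors gave no called difference in these genes. In dCA over BRD-6989, 0 of 83 genes passed edgeR's test, while 1.44% of all genes were higher and 0.953% lower. At an unadjusted p under 0.05 there were 14 of the 83, or 16.9%, against 14.5% of all genes. DESeq2 called 2 genes higher and 1 lower. The smallest adjusted p belonged to Ndufa1, with a log2 difference of 0.31 ± 0.10 (edgeR adjusted p = 0.0849, 95% interval 0.12 to 0.51), higher under dCA in 11 of 12 conditions. Uqcrb had -0.59 ± 0.20 (adjusted p = 0.0994, interval -0.97 to -0.20), and Cox7c had -0.34 ± 0.12 (adjusted p = 0.132, interval -0.58 to -0.10), lower under dCA in 12 of 12 conditions. For 79 of the 83 genes the interval lay within a log2 difference of 1 either way. The doses of the compounds differ, so these values describe the wells compared and not equal exposures.

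The summed level of the set was compared without a test. All 83 genes together gave 12903 ± 1108 CPM in dCA libraries and 12478 ± 1029 in BRD-6989 libraries, against 12394 ± 1033 in DMSO libraries (SD, n = 12 each). The dCA library was higher than the DMSO library in 7 of 12 conditions and the BRD-6989 library in 6 of 12. Complex IV genes summed to 2707 ± 217 and 2697 ± 248 under dCA and BRD-6989, against 2528 ± 257 under DMSO, each higher in 8 of 12 conditions. Complex V genes summed to 4029 ± 375 and 3814 ± 324, against 3875 ± 281. Complex I genes summed to 4438 ± 416 and 4215 ± 462, against 4274 ± 391. Each of these differences from DMSO was smaller than 1 SD of the libraries, but that SD also holds the differences between stimuli. Paired by stimulus, the median ratio to DMSO for all 83 genes was 1.03 under dCA and 1.004 under BRD-6989. It was 1.08 and 1.09 for complex IV, 1.04 and 0.997 for complex V, and 1.02 and 0.991 for complex I.

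Other gene lists of metabolism and translation were measured in the same libraries. The cytosolic ribosomal protein genes summed to 94348.5 ± 6609 CPM under dCA and 91528 ± 6265 under BRD-6989, against 81271 ± 5053 under DMSO, and were higher in 12 and 11 of 12 conditions. Of the 82 tested, 68 rose under dCA and 49 under BRD-6989, and none was called lower in either. This share of the libraries moved with the calls above, and its part in them was not tested. The 75 mitochondrial ribosomal protein genes had 2 rises and 0 falls under dCA, and 3 rises and 1 fall under BRD-6989. Mrps6 had a log2 change of 1.88 ± 0.34 under dCA and 1.956 ± 0.33 under BRD-6989. Of 29 assembly factors outside the symbol rule, 0 were called under dCA, and 1 rose under BRD-6989, Cox20 (0.90 ± 0.29), which acts in complex IV assembly. Of 5 other nuclear genes of the system outside the rule (Cyc1, Cycs, Usmg5, Atpif1 and 2010107E04Rik), 0 were called in either.

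Genes of fuel supply to the respiratory chain were called both ways, and most of the called glycolysis genes fell. The shares over all genes were 6.92% higher and 6.58% lower under dCA, and 7.98% higher and 8.2% lower under BRD-6989. Among 21 genes of the citric acid cycle and pyruvate dehydrogenase, 1 rose under dCA, Mpc1, part of the mitochondrial pyruvate carrier (1.11 ± 0.24, edgeR adjusted p = 0.000342). Under BRD-6989, 3 rose, among them Idh2 (1.30 ± 0.31) and Mpc1 (1.27 ± 0.22), and 1 fell, Ogdh (-0.34 ± 0.12). Of 14 glycolysis genes, 1 rose and 6 fell under dCA, and 2 rose and 9 fell under BRD-6989. Hk1, the first enzyme of glycolysis, had -0.94 ± 0.22 under dCA and -0.76 ± 0.20 under BRD-6989, and Pfkl had -0.53 ± 0.17 and -0.87 ± 0.17. Pgam1 rose in both, by 0.33 ± 0.09 and 0.46 ± 0.08. Ucp2, the uncoupling protein of macrophages, fell in both, with log2 values of -0.67 ± 0.23 and -0.81 ± 0.23. Slc25a3, the phosphate carrier that feeds ATP synthase, rose under dCA (0.38 ± 0.10), and Tomm7 (0.68 ± 0.14) and Slc25a4 (0.51 ± 0.18) rose under BRD-6989. Ucp2, Slc25a3, Tomm7 and Slc25a4 come from a list of mitochondrial carriers, channels, uncoupling and import genes. From that list only the largest called changes, up to 2 each way, are named. Of 11 regulators of mitochondrial biogenesis, Myc rose under dCA (0.67 ± 0.17), and 0 were called under BRD-6989.

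Wells without a stimulus gave the inhibitor effect at rest, from 8 wells per pretreatment with time as a block. With edgeR, 0 of 83 genes were called under dCA and 0 under BRD-6989, where 0.72% and 0.81% of all genes were called, and DESeq2 called 0 in each. At an unadjusted p under 0.05 there were 6 and 2 genes (7.23% and 2.41%, against 7.67% and 8.00% of all genes). The median standard error of a log2 change was 0.57 and 0.55, against 0.16 over the 12 conditions, and the 95% interval lay within a log2 change of 1 either way for 8 and 10 genes. Atp5g3 had log2 values of 0.85 ± 0.36 and 0.69 ± 0.36, and Ndufv2 had 1.49 ± 0.69 under dCA. All 83 genes summed to 12719 ± 1536 CPM under dCA and 12972 ± 1940 under BRD-6989, against 12926 ± 1701 under DMSO (SD, n = 8 wells each).

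The effect of stimulation was measured in wells of 60 min and later, 15 for each condition over the 3 pretreatments. The respiratory genes had almost no calls in this window, in which Irg1 rose by a log2 of 4.42 ± 0.50 after LPS. Averaged over the 11 stimuli, 0 of 83 genes were called with edgeR, against 1.27% of all genes higher and 1.04% lower. At an unadjusted p under 0.05 there were 4 (4.82%, against 13.3% of all genes), and DESeq2 called 0. The member with the smallest adjusted p, 0.113, was Sdhaf1, an assembly factor of complex II named after its values were seen. The median log2 value was -0.04 over the 83 genes and -0.08 over all genes. In a test for any difference among the 12 conditions, 0 of 83 were called, against 9.22% of all genes. The lowest adjusted p there was 0.0529 for Atp5e, the epsilon subunit of ATP synthase. In that test 18 genes had an unadjusted p under 0.05 (21.7%, against 22.8% of all genes). DESeq2 called 0 in that test.

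Taken singly, the stimuli gave 1 call among the 83 genes, after Zymosan. The median standard error over the 83 genes ran from 0.36 after Poly(I:C) to 0.39 after CpG. The 95% interval lay within a log2 change of 1 either way for between 36 genes (LPS) and 48 genes (MDP). A missing call therefore does not show that a level was unchanged. All genes were called at 0.0794% after SeV, 0.0341% after MDP, 0.0567% after TDB, 1.02% after FLA, 1.16% after CpG and 1.55% after Pam3cys. The shares were 2% after R848, 2.45% after Poly(I:C), 2.46% after Zymosan, 3.55% after MDP_LPS and 3.62% after LPS. The called gene was Ndufv2, with 21 UMI in the 15 Zymosan wells, 7 of them at 0, against 73 UMI in the 15 NoStim wells, 1 of them at 0. In CPM of the summed wells this was 85.9 in dCA wells, 15.04 in BRD-6989 wells and 11.3 in DMSO wells after Zymosan, against 209, 115 and 46.1 without a stimulus. Wells of both conditions overlapped, at 0 to 109 CPM after Zymosan, against 0 to 508 without a stimulus. The log2 change was -1.63 ± 0.52 (edgeR adjusted p = 0.0432). The adjusted p was 0.804 in DMSO wells alone, 0.191 with the wells of each condition summed, 0.0954 without a filter on low counts, 0.0957 with a trended dispersion and 0.0687 with the Rn45s covariate. Over all 10 alternatives the log2 value itself stayed between -1.77 and -1.58.

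Poly(I:C), which mimics double-stranded viral RNA, gave the highest sum of the set in each of the 3 pretreatments. The 83 genes summed to 14249.6 ± 1356 CPM after Poly(I:C), against 12478 ± 1861 without a stimulus (SD, n = 15 wells each). The median log2 value of the 83 genes was 0.19, against 0.009 over all genes, with 56 positive and 27 negative. There were 13 genes at an unadjusted p under 0.05 (15.7%, against 14.5% of all genes) and 0 past edgeR's adjusted test. The lowest adjusted p, 0.103, belonged to Atp5e (0.66 ± 0.23). By complex, the medians were 0.31 for complex V, 0.19 for complex IV, 0.16 for complex III, 0.06 for complex II and 0.07 for complex I. In the same wells 22 of 82 cytosolic ribosomal protein genes rose, and their sum was 101660 ± 10881 CPM, against 87162 ± 10364 without a stimulus. The Rn45s share was 40.3 ± 6.64%, against 51.9 ± 5.71%. The part of these in the sum was not tested.

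At the low end, MDP_LPS gave 10900.5 ± 1250 CPM for the 83 genes and ranked 11, 11 and 12 of 12 conditions under dCA, BRD-6989 and DMSO. LPS gave 11363 ± 1142 and ranked 10, 12 and 7. Ribosomal protein genes were also low there, at 80604 ± 9794 CPM after MDP_LPS and 81908 ± 8874 after LPS. After LPS the median log2 value of the 83 genes was -0.20, against -0.15 over all genes.

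**Figure D4:**
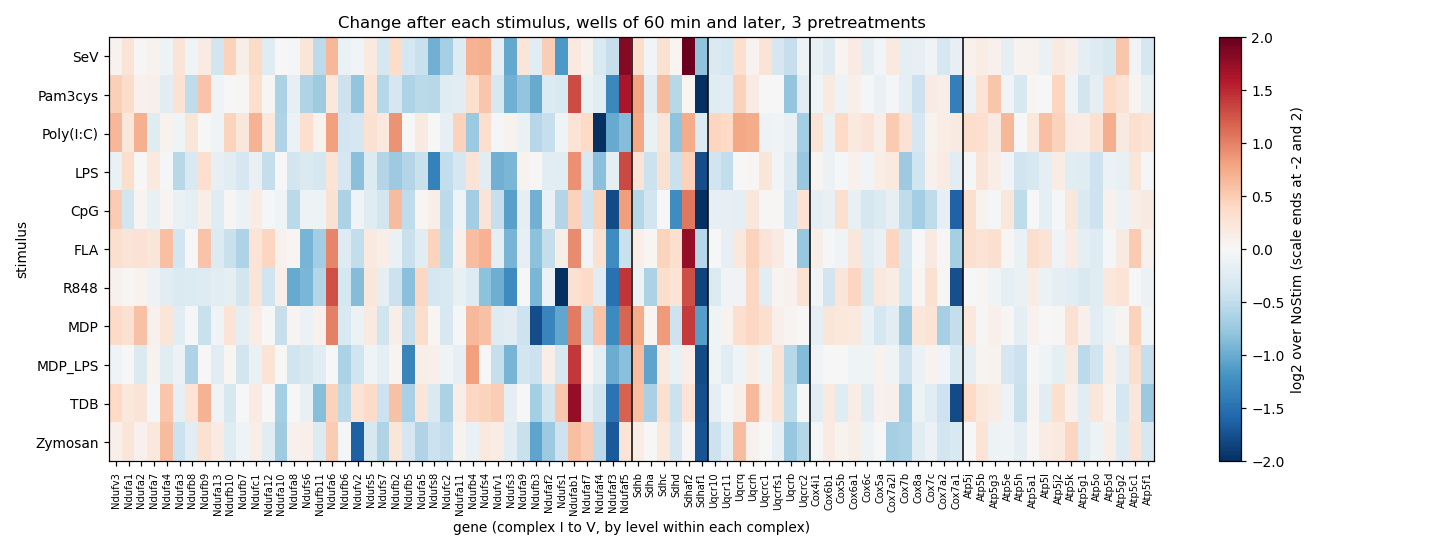
Log2 change of 82 of the 83 genes (horizontal axis, complexes I to V separated by lines, by level within each) after each of 11 stimuli (vertical axis) over NoStim in wells of 60 min and later, as colour from -2 to 2. Strong colours lie mostly at scarce genes towards the right end of complexes I and II and at Cox7a1, and most genes of complexes IV and V are pale. Ndufv2 after Zymosan, at -1.63, is the called value.

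Whether an inhibitor changed the response to stimulation was tested as the mean response of the 11 stimuli under the inhibitor less that under DMSO. This needs UMI in every group, which held for 73 of the 83 genes with dCA and 75 with BRD-6989. With edgeR, 0 genes were called in each, as for 0% of 4109 genes and 0% of 4481 genes over the whole table, and DESeq2 called 0 of the 83 in each. At an unadjusted p under 0.05 there were 3 genes in each, named after their values were seen: Ndufb2 (-2.02), Cox6c (1.11) and Ndufv2 (-1.66) with dCA, and Ndufs6 (1.504), Atp5a1 (1.02) and Ndufa9 (1.92) with BRD-6989. That was 4.11% and 4% of the genes of the set that were fitted, against 6.04% and 5.40% of all genes fitted. The median standard error was 0.65 and 0.66, so that the interval of only 2 and 4 genes lay within a log2 difference of 1 either way.

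A trend over time was called for 1 of the 83 genes, and time cannot be told apart from the plate row. In a linear trend over all wells, 27 genes had positive and 56 negative slopes, with a median of -0.04 per h, against -0.03 over all genes. With edgeR, 1 gene fell and 0 rose, against 4.49% of all genes falling and 5.89% rising. It was Ndufs5, an accessory subunit of complex I, which changed by -0.22 ± 0.07 per h on the log2 scale (adjusted p = 0.0131). Its level over 36 wells per time was 111, 95.2, 93.1, 106, 87.0, 86.6, 72.9 and 64.8 CPM at 15, 30, 45, 60, 90, 120, 150 and 180 min. The adjusted p was 0.0633 with a trended dispersion and 0.0696 without a filter on low counts. In the unstimulated wells alone 0 of 83 genes were called by edgeR and 0 by DESeq2, while 0.0909% of all genes rose and 0.0227% fell. There, 4 genes had an unadjusted p under 0.05 (4.82%, against 7.04% of all genes).

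The sum of the 83 genes was highest early, at 13321 ± 1690 CPM at 15 min and 13686 ± 1470 at 30 min, and lay between 11914 and 12851 from 45 min onward (SD, n = 36 wells each). The ribosomal protein genes were also highest at 30 min, at 98386 ± 7608 CPM. The early and later wells lie in different plate rows. The 95% interval of the slope lay within a log2 change of 1 per h either way for each of the 83 genes.

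**Figure D5:**
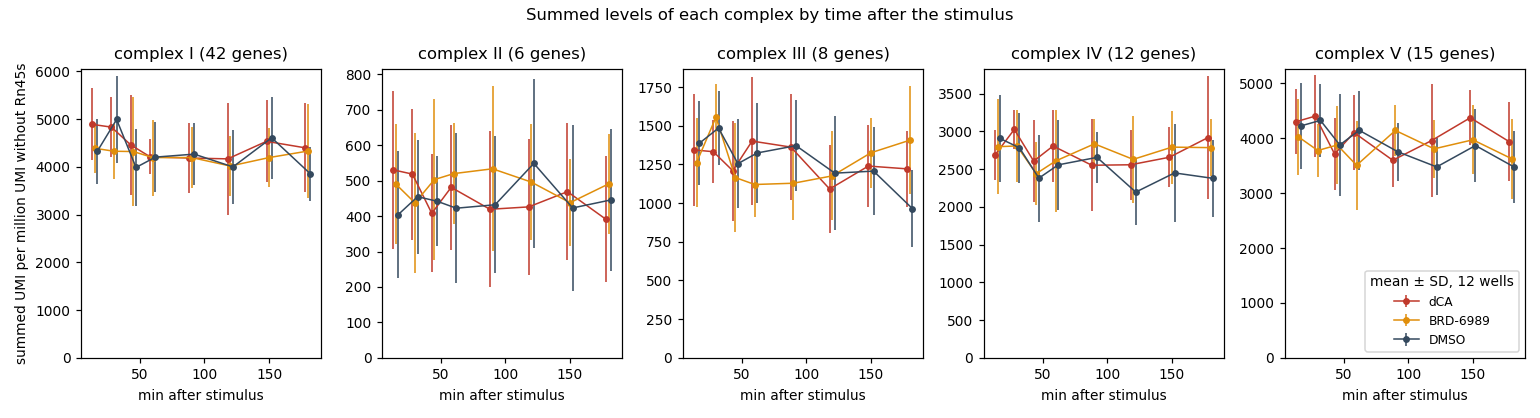
Summed level of each complex in UMI per 1000000 UMI without Rn45s (vertical axes from 0) by minutes after the stimulus, as the mean ± SD of 12 wells for dCA, BRD-6989 and DMSO. The bars of the 3 pretreatments overlap at each time in all 5 panels.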

How the data were processed

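Macrophage RNA from 3 plates of 96 wells was sequenced as 3′ tags; per the labels' protocols, each tag carries 6 bases that name the well and 10 random bases that mark the molecule. The deposited table holds raw UMI counts per gene and well, with a table of total read counts beside it. BWA, edgeR and mm10 are named in the submitters' processing notes, with roles and versions not given in the sources used here. The members and gene lists were chosen with earlier results of these data known.

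Genes with at least 100 UMI over all wells were kept (8815), without Rn45s. Counts were summed over the 8 times (36 libraries) for the pretreatments, and single wells were used for stimuli, from 60 min on (180 wells), and for time. Tests used edgeR 4.0.16 (TMM, glmQLFit and glmQLFTest, top.proportion 0.05) in R 4.3.3 with limma 3.58.1. Benjamini-Hochberg adjustment was over all genes, with a threshold of 0.05. The tests were also run on simulated counts with the same dispersion for all genes and no plate effect. Such counts cannot show how the tests behave where plates or the spread of genes differ. DESeq2 1.42.0 was an alternative. Others were single wells, library sizes without TMM, Rn45s kept, no filter or a mean of at least 1 UMI, total reads, the Rn45s share as a covariate, no block, wells of 60 min and later, DMSO wells only and each condition left out. The trended dispersion and the summed late wells were chosen after seeing the data. Of the cells of the 83 genes, 2.55% had reads and no UMI, and reads per UMI averaged 5.42. The labels give a time and a stimulus for each well and no replicate number, so the replicate block pairs wells or libraries of the same time or stimulus across plates; no correlation of deviations was computed.

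Genes were named if on a set list of subunits and isoforms, among the 10 with most UMI, or among the 2 largest rises or falls past the threshold in a complex with at least 20 UMI per 1000000 (CPM). Other lists give up to 2 genes each way. Other genes, named with a small count or as an extreme, were chosen after their values were seen. UMI are counted molecules, and intervals and tests cover the spread between these wells, or between the libraries summed from them. The values of 1 of the 83 genes are not reported here; it is counted in the sums and counts and is not drawn in the figures of single genes.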

Additional observations from a re-analysis of the deposited data

Results flagged for a closer look

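The summed level of each complex, and of all 83 genes, was checked for a well far from the other 7 times of its pretreatment and stimulus. The 36 groups of 8 wells were each checked on 6 sums, which overlap since 1 holds all the genes. Of these 216 checks, 10 found such a well, always the highest, and chance gives about 1 in 20. All values are UMI per 1000000 UMI without Rn45s, and no explanation was tested.

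For complex I, the well of dCA with Zymosan at 120 min had 5643.3, against 3666.6 to 4457.9 in its other wells. The well of BRD-6989 with SeV at 60 min had 6085.2, against 4120.2 to 4739. The well of DMSO with MDP at 30 min had 7136.9, against 3716.2 to 4794.1, and the same well had 18003.3 for all 83 genes, against 11534.1 to 14195.1.

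For complex II, dCA with Zymosan at 30 min had 817.8, against 218.3 to 455.5. DMSO with FLA at 120 min had 1008.6, against 269.8 to 614.6, and DMSO with Zymosan at 180 min had 778.9, against 221.5 to 460.1.

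In BRD-6989 with MDP_LPS at 30 min, complex III genes had 1446.8, against 872 to 1092.3, and complex IV genes had 3225.6, against 2065.8 to 2596.6. Complex IV genes had 4861.2 in dCA with Poly(I:C) at 180 min, against 2604 to 3374.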

How the results depend on the processing

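Counts of called genes among the 83 depended on several choices, and the cause was not tested. Calls over all genes, 1190 under dCA and 1426 under BRD-6989, moved as well. They were 681 and 215 with the Rn45s covariate, and 816 and 1007 in wells of 60 min and later. With library sizes without TMM they were 1237 and 1419. The counts that follow are of the 83 genes. Under dCA (5 higher, 0 lower), library sizes without TMM gave 2 higher and 3 lower, no filter on low counts 3 higher, total read counts 3 higher, the Rn45s covariate 1 higher and wells of 60 min and later 1 higher. Single wells gave 3 lower and DESeq2 gave 1 lower. Under BRD-6989 (9 higher, 4 lower), the Rn45s covariate gave 0 higher and 0 lower, wells of 60 min and later 3 higher and 1 lower, and a trended dispersion, no filter and total reads each gave 2 lower. For dCA over BRD-6989 (0), DESeq2 gave 2 higher and 1 lower, single wells 2 lower, and total reads and the Rn45s covariate 1 higher each. Leaving out 1 condition at a time gave 2 to 5 higher and 0 to 1 lower under dCA, 5 to 9 higher and 2 to 4 lower under BRD-6989, and 0 to 1 lower for dCA over BRD-6989, where the 1 came without CpG or without R848.

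Without the replicate block that pairs libraries of the same stimulus, 3 genes were higher under dCA, and 6 were higher and 3 lower under BRD-6989. For single stimuli (1 call), no filter, DMSO wells only and summed late wells gave 0, and a minimum mean of 1 UMI and total reads gave 2. Over all genes the single stimuli gave 1585 calls, against 1538 without a filter, 341 in DMSO wells only and 1483 with summed late wells. For any stimulus difference (0), a trended dispersion and library sizes gave 1, a mean of at least 1 UMI gave 6 and total reads gave 5. For the time trend (1 lower), a trended dispersion and no filter gave 0, library sizes and a mean of at least 1 UMI gave 2, and total reads gave 3 lower and 1 higher.

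With the Rn45s covariate, 4 BRD-6989 changes turned sign, to -0.28 for Atp5g3, -0.10 for Cox6c, -0.057 for Cox7b and -0.44 for Ndufaf4, and 18 of 20 named results lost their call, these 4 included. With Rn45s kept, 20 of 20 kept their call.

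Limits are the single plate per pretreatment, the single experiment and the depth of 242 to 1033 UMI of these genes per well, which left a median standard error of 0.57 and 0.55 in unstimulated wells.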
